A study of Homo sapiens with 2 samples.

Results

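Groups of A-to-G positions lying close together were taken from base counts of messenger RNA of HEK-293T, an established human line of embryonic kidney origin. All cells held the biosensor named CIRTS-hADAR, in which CIRTS stands for a protein system built to act on chosen RNAs and hADAR for a human adenosine deaminase. One library came from cells without the small molecule ABA and 1 from cells with it, and both groups carried the biosensor. The dose of ABA, the time and the way in which the biosensor was delivered are not given in the sources used here. With 1 library per condition, a difference between the libraries has no replicate check and is not a test of the conditions. A position was a member when it lay on chromosomes 1 to 22 or X, was listed in both libraries, had at least 2 G reads over both libraries together and a pooled share of G among A plus G reads of at least 5% but under 95%, and had at least 2 other such positions within 100 nt on the same strand. Of 2854489 positions listed in both libraries, 1447 (0.0507%) met the limits on reads and share, and 52 (0.00182%) were members. The libraries held 51089656 base reads without ABA and 45275875 with it. Coordinates are those of hg19.

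ADAR enzymes turn adenosine into inosine within double-stranded RNA, and reverse transcription copies inosine as if it were G. Where a transcript folds back on an inverted repeat, several adenosines close together are often deaminated, so that edited sites of the cells' own RNA tend to lie in groups, many of them in introns and 3' untranslated regions. A neighbouring pair of sites can be edited in very different shares of the transcripts, since the enzymes favour some flanking bases over others.

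As a background, A-to-C and A-to-T changes were put through the same rule at the same A positions. It found 3 clustered A-to-C positions among the 88 that met the limits and 0 clustered A-to-T positions among 64. As a share of the positions that met the limits, 3.59% (2.70 to 4.69) of A-to-G and 3.41% (0.709 to 9.64) of A-to-C positions were clustered. The 3 A-to-C positions are neighbours in 1 cluster, so that their interval, which takes them as independent, is too narrow. A single neighbour within 100 nt was found for 101 of the 1447 A-to-G positions, 0 of the 88 A-to-C and 0 of the 64 A-to-T positions. Shares of reads are given with exact 95% intervals, which cover counting error alone.

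The members were chosen by their pooled reads, so their level is a description. Outside chromosome 21 they had a median pooled depth of 32 reads, from 13 to 79, and a median of 15 reads in each library. Their pooled A-to-G share had a median of 15.8% and ran from 5.08% to 46.8%. At the lower limit on share, the members just inside were chromosome 4 at 57326262, with 3 G of 59 reads (5.08%), and chromosome 13 at 21949093, with 2 of 38 (5.26%). Just outside were chromosome 5 at 79923446 and chromosome X at 77083614, each with 2 of 41 reads (4.88%). The lowest number of G reads that the rule admits, 2, was held by 10 of the 52 members and 3 G reads by 8, while the highest was 83. None of the 52 carried an A-to-C or A-to-T read. For each of these changes that is 0 of 1071 reads in the no-ABA library, which allows a share of up to 0.280%, and 0 of 1462 in the ABA library, which allows up to 0.205%. Over all nuclear positions the A-to-C share was 0.00995% without ABA and 0.0113% with it. The A-to-T share was 0.00620% and 0.00642%. At such shares 0 reads is not particular to the members.

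Joined where positions that met the limits were at most 100 nt apart, the members formed 17 clusters on 11 chromosomes. There were 8 plus-strand and 9 minus-strand clusters. A single cluster had 5 members, 3 had 4, 11 had 3, and 2 had 1 member with its neighbours on either side. Counting the 7 end positions that met the limits without being members themselves, the clusters spanned 52 to 162 nt, with a median of 80 nt. Neighbouring positions were 1 to 98 nt apart, with a median of 33.5 nt, and 4 pairs were directly adjacent. Of the 336 A positions listed in these spans, 103 had a G read in at least 1 library. Most A positions between the members thus had no G read at all. On the opposite strand, 1 member had a listed position within 100 nt.

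The chromosome 21 clusters were set apart, because they lie in a plus-strand locus from 46596515 to 46642104 where 3 blocks of neighbouring positions had a higher rate in the ABA library in the test across all blocks. Whether its reads came from the cells' own gene or from the introduced biosensor cannot be told from the base counts, and this bears on every value given for the locus. The locus held 8 of the 52 members. Its members were also deeper, with a median of 200 pooled reads, and as a share of all nuclear reads their reads were 2.05 times as many in the ABA library. For the 44 members outside the locus this relative depth was 1.01 times that of the no-ABA library. The part of this depth in the results at the locus was not tested. In the test across all blocks 6 were raised. Those outside this locus held no members and were not left out of the sets compared below.

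Outside the chromosome 21 locus the clustered positions had about the same A-to-G share in both libraries. Without ABA, 130 of 740 reads were G, a share of 17.6% (14.9 to 20.5), and in the ABA library 120 of 727 were, a share of 16.5% (13.9 to 19.4). The ratio of the share in the ABA library to that in the no-ABA library was 0.940 (0.727 to 1.21). Of these 44 members 21 were above and 21 below their no-ABA share in the ABA library, and 2 were equal. Among all 42785 positions with any G read, 64.1% were higher and 35% lower in the ABA library. By cluster, 5 of the 15 outside the locus were higher in the ABA library and 10 were lower, and the interval of the ratio excluded 1 in 0 of them. Leaving out each of the 15 clusters in turn gave ratios from 0.895 to 0.971. When the rule asked for 1 neighbour in place of 2, the ratio outside the locus was 1.19 (1.03 to 1.37), so the result depends on that limit. With positions at a share of 35% or more in either library left out, the 35 remaining members had 12.8% and 13.6%, a ratio of 1.07 (0.773 to 1.47). This limit acts on the shares compared, and at low depth few G reads reach it. It removed 17804847, with 3 of 7 and 0 of 8 reads, and, in the other direction, 133297904, with 3 of 11 and 7 of 14. The part of this in the move from 0.940 to 1.07 was not tested.

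**Figure D1:**
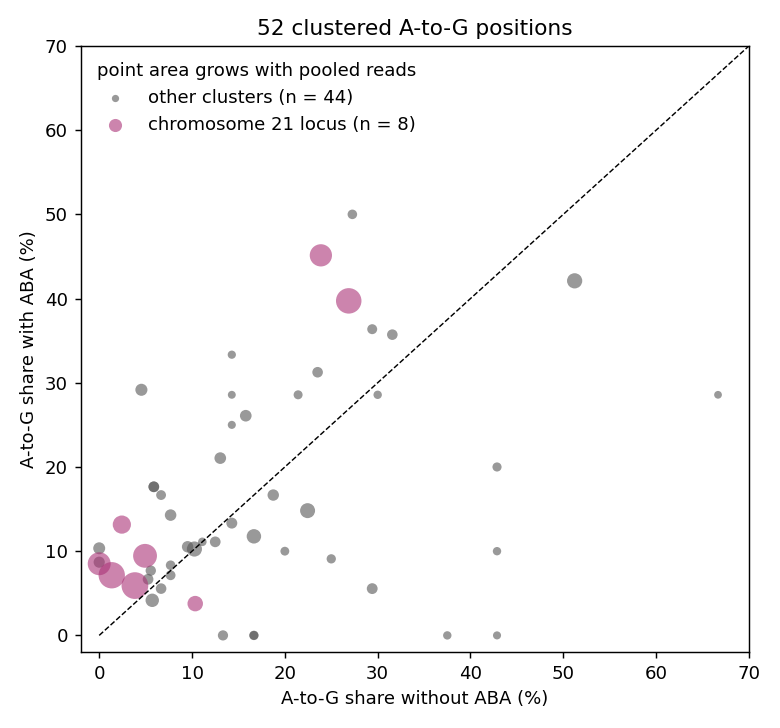
Each point is 1 of the 52 clustered positions, with its A-to-G share (%) in the no-ABA library on the horizontal axis and in the ABA library on the vertical axis, and the dashed line marks equal shares. The 44 positions of other clusters lie on both sides of the line, 21 above and 21 below, while 7 of the 8 in the chromosome 21 locus lie above it. The locus was chosen for its higher rate in the ABA library. The 4 members of its first cluster met the share limit only through that library.

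The cluster with the most members lay on chromosome 12, plus strand, from 98943078 to 98943201. Position 98943078 had 3 G of 14 reads in the no-ABA library and 2 of 7 in the ABA library. At 98943096 there were 3 of 10 and 2 of 7 reads. These first 2 members stood close together in both libraries, between 21.4% and 30%. Of the adjacent pair 98943102 and 98943103, the first had 2 of 15 reads in the no-ABA library and 0 of 15 in the ABA library. The second had 4 of 17 and 5 of 16. Their exact intervals overlapped in each library, so no difference within the pair was detectable. The last, 98943201, had 1 of 17 and 3 of 17 reads. In all, the cluster had 13 of 73 reads (17.8%, 9.84 to 28.5) and 12 of 62 (19.4%, 10.4 to 31.4), so its level did not differ between the libraries beyond counting error. Another 19 A positions were listed between its ends, and 1 of them had a G read.

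A second chromosome 12 cluster, on the plus strand from 133297885 to 133297966, held members whose shares differed between the libraries in opposite directions. Position 133297904 had 3 of 11 reads in the no-ABA library and 7 of 14 in the ABA library. Position 133297966 had 3 of 8 and 0 of 9 reads, and 133297885 had 1 of 13 and 1 of 14. Their sum, 7 of 32 reads (21.9%, 9.28 to 40.0) and 8 of 37 (21.6%, 9.83 to 38.2), was nearly the same in both libraries.

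Chromosome 6 carried 2 clusters on the plus strand, 866 nt apart. The first, from 42855972 to 42856051, had 4 members and held the position with the highest pooled share of all 52. That position, 42856029, had 21 G of 41 reads (51.2%, 35.1 to 67.1) in the no-ABA library and 16 of 38 (42.1%, 26.3 to 59.2) in the ABA library, and the intervals overlap widely. Its neighbours were at lower levels, with 1 of 7 and 2 of 8 reads at 42855972, 1 of 17 and 3 of 17 at 42855979, and 1 of 15 and 1 of 18 at 42856051. The cluster as a whole had 30% (20.3 to 41.3) in the no-ABA library and 27.2% (17.9 to 38.2) in the ABA library. The second, from 42856983 to 42857031, had 12.3% (5.47 to 22.8) and 18.3% (10.1 to 29.3). Within it, position 42857023 had 4 of 39 reads in each library, the same share of 10.3%. Position 42857031 had 3 of 19 and 6 of 23 reads, and 42856983 had 1 of 7 and 3 of 9.

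Chromosome 5 also had 2 clusters close together, 476 nt apart on the minus strand. In the one from 79923906 to 79923990 the 3 members were alike in level, with 3 of 23 and 4 of 19 reads at 79923906, 2 of 21 and 2 of 19 at 79923919, and 2 of 16 and 2 of 18 at 79923990. Summed, they gave 11.7% (4.82 to 22.6) in the no-ABA library and 14.3% (6.38 to 26.2) in the ABA library. The other had the single member 79923378, with 6 of 36 reads (16.7%) and 4 of 34 (11.8%). Its neighbours on either side had few other neighbours and so were not members, although their shares were higher. Position 79923329 had 11 of 41 reads in each library (26.8%, 14.2 to 42.9), and 79923430 had 4 of 7 and 3 of 6.

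On chromosome 4 there were 3 clusters, and each had a lower summed share in the ABA library. The one on the plus strand from 57326262 to 57326313 had the most reads summed over members of any cluster outside chromosome 21. It had 14 of 103 reads (13.6%, 7.63 to 21.8) and 6 of 66 (9.09%, 3.41 to 18.7). Most of its G reads were at 57326291, with 11 of 49 and 4 of 27, while 57326262 had 2 of 35 and 1 of 24. On the minus strand, from 2940397 to 2940462, the sums were 11 of 35 (31.4%, 16.9 to 49.3) and 6 of 26 (23.1%, 8.97 to 43.6). Of its members, 2940462 had 5 of 17 and 4 of 11 reads, 2940397 had 4 of 6 and 2 of 7, and 2940413 had 2 of 12 and 0 of 8. The third, on the minus strand from 17804785 to 17804847, had the lowest difference of the 17 clusters in percentage points, ABA minus no ABA, with 6 of 26 reads (23.1%, 8.97 to 43.6) and 2 of 27 (7.41%, 0.910 to 24.3), and these intervals overlap too. Its adjacent members 17804785 and 17804786 had 2 of 10 and 1 of 10 reads, and 1 of 9 and 1 of 9. The third member, 17804847, had 3 of 7 reads in the no-ABA library and 0 of 8 in the ABA library.

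The other 3-member clusters were shallow. Chromosome 1, minus strand, from 36068231 to 36068295 had 8 of 41 reads (19.5%, 8.82 to 34.9) in the no-ABA library and 9 of 33 (27.3%, 13.3 to 45.5) in the ABA library, and its 3 members were each higher in the ABA library. Its main position was 36068231, with 6 of 19 and 5 of 14 reads. The cluster on chromosome 10, minus strand, from 75008809 to 75008876 had 13.0% (4.94 to 26.3) and 10.7% (4.72 to 19.9). Here the members differed in direction: 75008876 had 5 of 17 reads in the no-ABA library and 1 of 18 in the ABA library, while 75008809 had 0 of 16 and 3 of 29, and 75008817 had 1 of 13 and 4 of 28. Chromosome 13, minus strand, from 21949055 to 21949107 had 6 of 34 (17.6%, 6.76 to 34.5) and 6 of 49 reads (12.2%, 4.63 to 24.8), with 3 G reads in each library at 21949107 among 7 and 15 reads. Chromosome 19, minus strand, from 11256672 to 11256725 had 15.2% (6.34 to 28.9) and 10.5% (2.94 to 24.8), and chromosome X, minus strand, from 77083828 to 77083915 had 14.6% (5.57 to 29.2) and 10.4% (3.47 to 22.7). All 5 of these clusters had overlapping intervals, so that no difference was detectable at this depth.

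A member outside the locus with no G read in a library was found 7 times, 5 of them in the ABA library. The depth there was 8 to 16 reads, at which a count of 0 allows a share of up to 37.5% down to 18.8%. Across the 44 members the shares in the libraries had a Pearson r of 0.314 and a Spearman rho of 0.259. These are given as a description across positions that share libraries and, within a cluster, reads, and that were read at a low depth.

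The cluster with the highest difference in percentage points had the single member chromosome 9 at 135895653, plus strand. It had 1 of 22 reads (4.55%, 0.115 to 22.8) in the no-ABA library and 7 of 24 (29.2%, 12.6 to 51.1) in the ABA library. Its neighbours, not members themselves, had 3 of 39 and 3 of 36 reads at 135895580, and 2 of 68 and 6 of 77 at 135895728. The high share in the ABA library was thus seen at 1 of the 3 positions. The ratio of 6.42 at this member had an interval from 0.824 to 289, which includes 1. Without this cluster the ratio of the other members outside chromosome 21 was 0.895 (0.689 to 1.16).

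**Figure D2:**
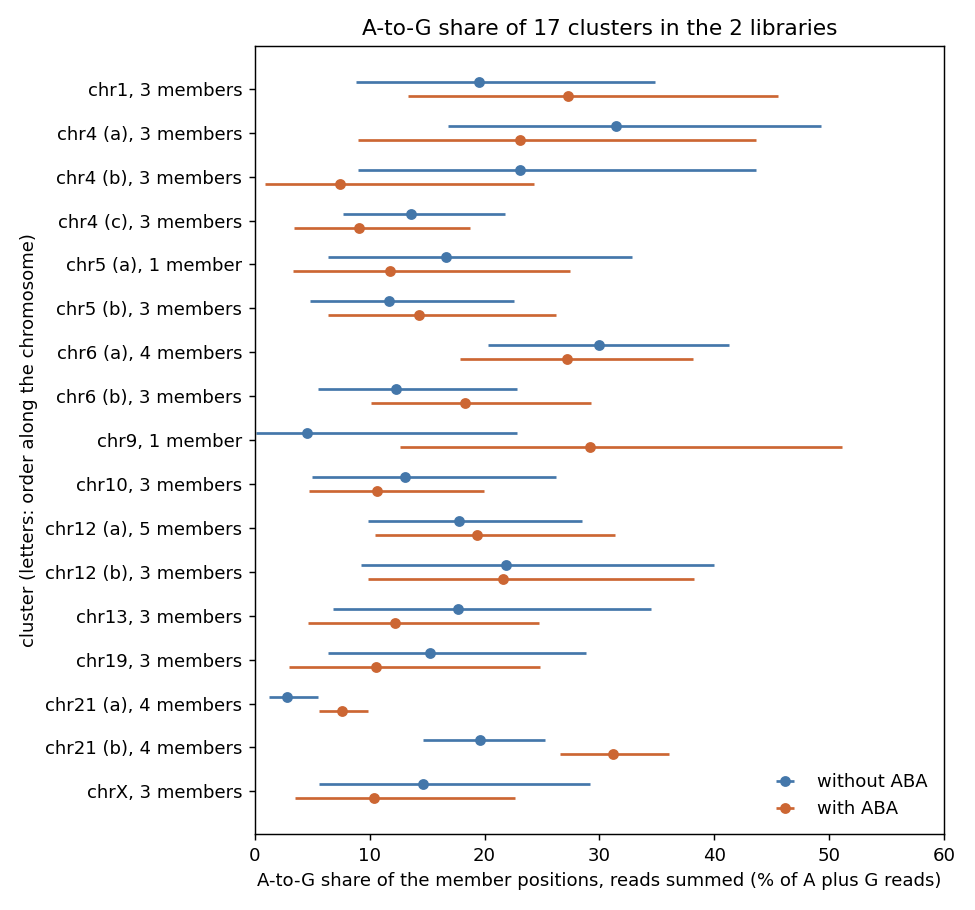
For each of the 17 clusters, points give the A-to-G share (%) with the reads of its member positions summed, blue in the no-ABA library and orange in the ABA library, and bars are exact 95% intervals. The bars of the 2 libraries overlap in the 15 clusters outside chromosome 21 and are apart in the 2 chromosome 21 clusters. Those 2 lie in the locus chosen for its higher rate in the ABA library. The 4 members of the first met the share limit only through that library.

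Both chromosome 21 clusters had higher shares in the ABA library. The one from 46600250 to 46600303 went from 8 of 284 reads (2.82%, 1.22 to 5.47) to 48 of 636 (7.55%, 5.62 to 9.88), a ratio of 2.68 (1.26 to 6.56). Its 4 members were each higher in the ABA library. Position 46600250 had 4 of 81 and 12 of 127 reads, 46600281 had 3 of 78 and 11 of 186, the adjacent 46600282 had 1 of 74 and 13 of 182, and 46600303 had 0 of 51, which allows up to 5.88%, and 12 of 141 (8.51%). The shares in the ABA library lay close together, from 5.91% to 9.45%. In the no-ABA library the highest of the 4 was 4.94%, under the share limit of the rule. With such shares the pooled reads could meet the limit only through a higher share in the ABA library. The direction of these 4 members was thus fixed by the rule, which also bears on the ratio of 2.68.

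The second chromosome 21 cluster, from 46640767 to 46640856, was at a higher level in both libraries, with 45 of 230 reads (19.6%, 14.6 to 25.3) in the no-ABA library and 121 of 388 (31.2%, 26.6 to 36.1) in the ABA library. The ratio was 1.59 (1.12 to 2.30). Of its members, 46640815 and 46640856 carried most of the G reads, with 25 of 93 and 58 of 146 at the first, and 16 of 67 and 51 of 113 at the second. Position 46640779 had 1 of 41 and 10 of 76 reads. Position 46640767, the 1 member of the locus that was lower in the ABA library, had 3 of 29 and 2 of 53. Another position that met the limits, 46640928, had 7 of 101 reads (6.93%) and 20 of 122 (16.4%). The ratio over the 8 members was 1.60 (1.17 to 2.22), and it was 1.70 times as large (1.18 to 2.46) as that of the other clusters, by a normal approximation on the log scale. The locus was found by its higher rate in the ABA library in these same libraries. Several of its members also met the share limit only through the ABA library. These ratios are thus a description.

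Over all 52 members the ratio was 1.13 (0.937 to 1.37), from 14.6% (12.7 to 16.7) in the no-ABA library to 16.5% (14.8 to 18.3) in the ABA library. Its direction rested on 1 cluster. Without the chromosome 21 cluster at 46640767 it was 0.915 (0.726 to 1.15), and without the whole locus it was 0.940.

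**Figure D3:**
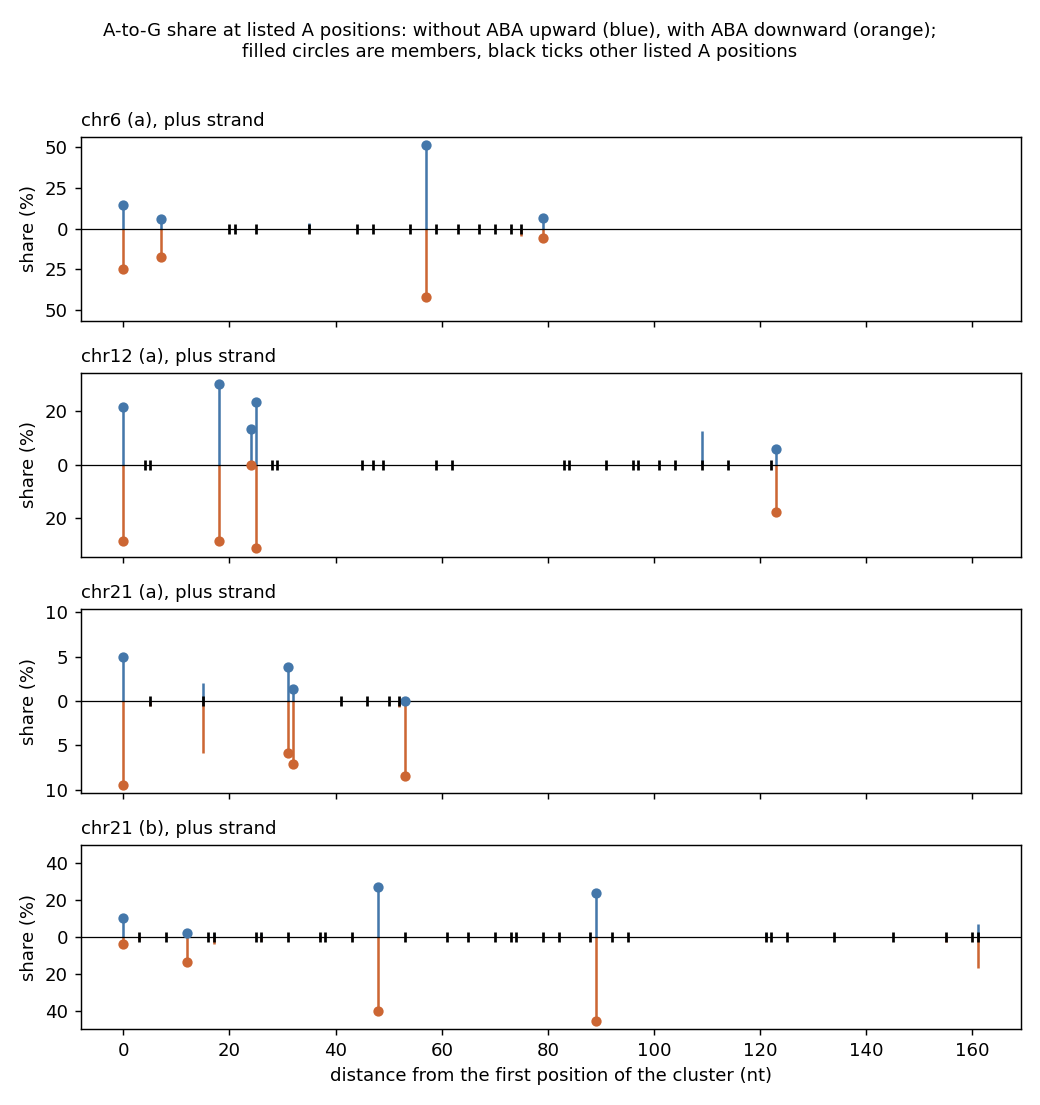
The 4 clusters with 4 or more members are drawn along the transcript, with distance (nt) from the first position on the horizontal axis and the A-to-G share (%) of each listed A position, upward in the no-ABA library (blue) and downward in the ABA library (orange). Filled circles are members and black ticks are other listed A positions, at most of which no G read was found. On chromosome 21 the bars are longer downward at 7 of 8 members, while on chromosome 6 the tallest bar, at 51.2% and 42.1%, is longer upward. The chromosome 21 locus was chosen for its higher rate in the ABA library.

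The clustered positions were compared with the 1395 scattered positions, which met the same limits on reads and share and had fewer than 2 such neighbours within 100 nt. Outside the chromosome 21 locus 1388 of these had a share of 13.3% (12.8 to 13.7) in the no-ABA library and 17.9% (17.5 to 18.4) in the ABA library, a ratio of 1.35 (1.29 to 1.42). The upper bound for the clustered positions, 1.21, lay below it. The ratio of the clustered positions was 0.695 times that of the scattered ones (0.552 to 0.874), by the same normal approximation. With positions at 35% or more in either library left out, the scattered ratio was 1.98 (1.85 to 2.12), that of all nuclear positions 1.94 (1.90 to 1.97) and that of the clustered ones 1.07, and the clustered ratio was 0.538 times the scattered one (0.401 to 0.723). Of all scattered positions, 69.4% were higher and 28.5% lower in the ABA library. The locus was left out for its higher rate in the ABA library. It held 8 of the 52 clustered positions but 7 of the 1395 scattered ones. With the locus and all shares kept, the clustered ratio was 0.831 times the scattered one (0.697 to 0.990). The size of the difference between the sets thus depends on that choice.

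This difference was sensitive to the limits. When 3 pooled G reads were required in place of 2, the clustered ratio outside the locus was 0.934 times the scattered one (0.696 to 1.25), and from a pooled share of 10% it was 0.893 times (0.670 to 1.19). For plus-strand positions it was 0.832 times (0.610 to 1.13) and for minus-strand positions 0.573 times (0.406 to 0.807). Scattered positions with exactly 2 pooled G reads, 653 in number, had a ratio of 2.67 (2.35 to 3.02), those with 3 to 5 had 1.76 (1.56 to 1.99), those with 6 to 9 had 1.09 (0.981 to 1.22) and those with 10 or more 1.12 (1.05 to 1.19). The clustered positions had 0.676 (0.240 to 1.80), 0.981 (0.601 to 1.60), 1.07 (0.661 to 1.73) and 0.941 (0.592 to 1.48) in the same classes. With positions at 35% or more left out, the scattered ratios in these classes were 2.67, 1.84, 1.41 and 1.79, and the clustered ones 0.676, 1.30, 1.27 and 0.656, the last over 2 positions. The ratios of the sets thus came closer over the first 3 classes and lay further apart in the last. There the clustered interval was 0.245 to 1.60. How the gap depends on the number of G reads was not tested. Among all scattered positions the ratio was 1.36 (1.29 to 1.42) with no neighbour and 1.47 (1.25 to 1.75) with 1. Outside the locus and without positions at 35% or more the order was the other way, at 2.05 (1.90 to 2.20) and 1.48 (1.20 to 1.83).

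**Figure D4:**
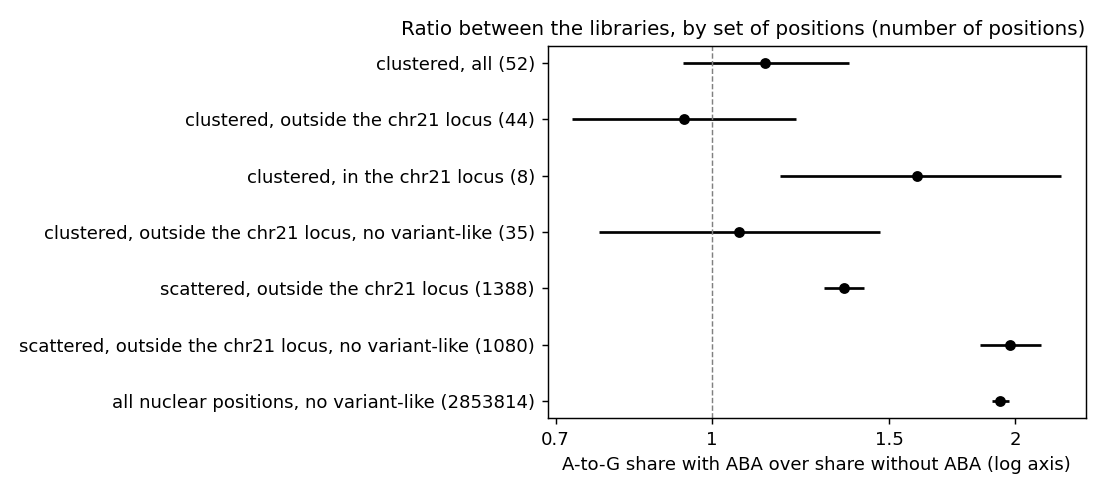
Points give the A-to-G share in the ABA library divided by that in the no-ABA library (log axis) for each set of positions, with the number of positions in brackets, and bars are exact conditional 95% intervals. The bar of the 44 clustered positions outside the chromosome 21 locus spans 1 and ends below that of the 1388 scattered positions.

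G reads were found in both libraries at most clustered positions. This was so at 44 of 52 members, 37 of the 44 outside the locus (84.1%), and at 59.7% of scattered positions outside it. Of all positions with any G read it was so at 5.26%, a set that includes positions with a single G read. Members had more pooled G reads, a median of 4 against 3 outside the locus. In the class of 2 pooled G reads, 6 of 10 clustered positions had 1 in each library, 1 had both in the ABA library and 3 had both in the no-ABA library. Of the 653 scattered positions in that class, 213 (32.6%) had 1 in each, 375 had both in the ABA library and 65 had both in the no-ABA library. Among those with 3 to 5, 16 of 19 clustered (84.2%) and 65.1% of scattered positions had G reads in both.

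The RNA around the clusters, at distances that the rule did not use, had a higher A-to-G rate than the rest of the transcriptome in both libraries. From 101 to 500 nt from the nearest member outside the locus, 2305 listed A positions had a rate of 0.168% (0.131 to 0.212) in the no-ABA library and 0.214% (0.171 to 0.264) in the ABA library, positions at 35% or more left out. In the rest of the nuclear positions, over 2000 nt from any member and outside the locus, the rates were 0.0404% and 0.0780%. The flanks were 4.15 times (3.23 to 5.24) as high as the rest in the no-ABA library and 2.74 times (2.19 to 3.39) in the ABA library. Between the libraries the flank ratio was 1.28 (0.920 to 1.78), against 1.93 in the rest. From 501 to 2000 nt the rates were 0.105% and 0.116%, 2.61 times (1.96 to 3.40) and 1.49 times (1.12 to 1.94) as high as in the rest. The flank rate was thus above the rest beyond the window of the rule, and its value was lower at the greater distance, with overlapping intervals in the no-ABA library and intervals apart in the ABA library.

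The flanks differed from one another. Of the 15 clusters, 9 had a flank rate from 101 to 500 nt above that of the rest in the no-ABA library and 10 in the ABA library, while 2 had no G read in the flank in each library. Several of the 9 rest on 1 or 2 G reads, with intervals that include the rate of the rest. In the no-ABA library the interval lay above it only for chromosomes 9 and X, the first chromosome 6 cluster and chromosome 12 from 98943078. How often stretches elsewhere exceed the rest was not tested. The flank of the chromosome 9 cluster held the most G reads, with 29 of 9138 reads in the no-ABA library and 35 of 9261 in the ABA library. Without it the rates were 0.121% and 0.165%, which is 2.98 times and 2.12 times that of the rest. No such value is given for 501 to 2000 nt. How far the lower value at the greater distance rests on this cluster was not tested. Inside the clusters, A positions that were not members had 0.662% (0.469 to 0.908) and 0.865% (0.638 to 1.14). The rule bounds the level of most of these, but they include end positions that met its limits and so were chosen for their G reads. One of these, 79923329 on chromosome 5, had 11 G reads in each library, of 38 in the no-ABA and 48 in the ABA library over the set. Around the chromosome 21 clusters, 39 positions from 501 to 2000 nt had 2 of 2600 reads in the no-ABA library and 52 of 4478 (1.16%) in the ABA library. These positions belong to the locus, which was chosen for its higher rate.

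**Figure D5:**
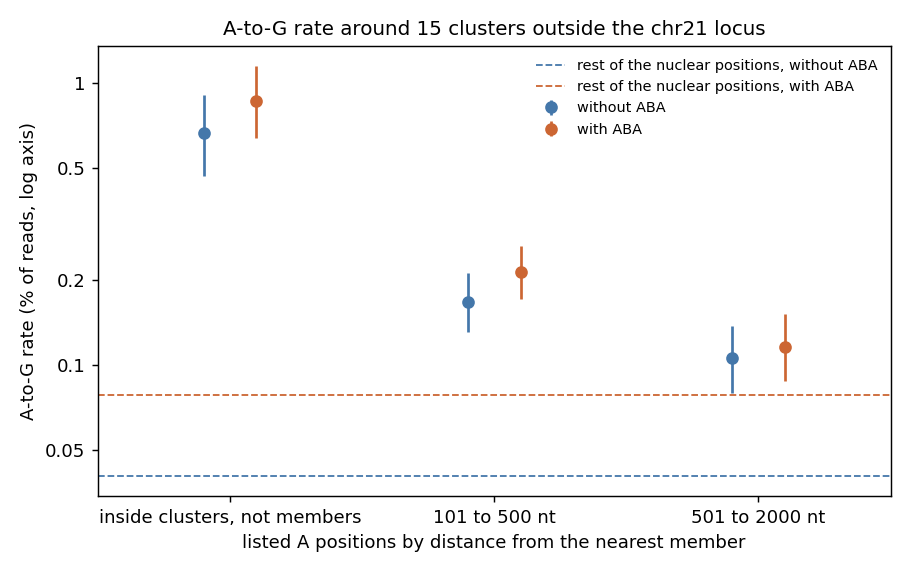
A-to-G rate (% of reads, log axis) of listed A positions inside and beside the 15 clusters outside the chromosome 21 locus, by distance (nt) from the nearest member, positions at 35% or more left out, with exact 95% intervals. Dashed lines are the rates in the rest of the nuclear positions, 0.0404% in the no-ABA library and 0.0780% in the ABA library. All points lie above the line of their own library. The points inside clusters include end positions that the rule chose for their G reads.

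Since the files list A positions, the bases beside a member could be read only as A or as not listed, which is another base or a position under the read cutoff. An A was listed directly 5' of 14 of 52 members (26.9%, 15.6 to 41.0) and of 29.7% of all nuclear positions. Directly 3' it was listed for 10 members (19.2%, 9.63 to 32.5), again against 29.7%, and for 12.8% (11.1 to 14.6) of scattered positions. On both sides it was listed for 3 members (5.77%, 1.21 to 15.9) and 9.86% of all positions. The intervals of the members include the value of all positions in each case, so that no leaning was detectable with 52 positions.

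No member passed the test between libraries. That test was Fisher's exact test, two-sided, on each position that had 20 or more reads in each of the libraries, with Benjamini-Hochberg adjustment over all 359090 such positions. It asked for an adjusted p under 0.05 and a change of at least 10 percentage points, and called 0 positions higher (0%) and 0 lower. It took in 14 of the 52 members, 8 in the locus and 6 outside. By an unadjusted exact p under 0.05, 3 of the 14 passed, against 0.0181% of all positions and 10.4% of the 240 scattered positions tested. Of these 3, 2 were in the locus, which was chosen for its higher rate, and 1 was among the 6 outside it. By size alone 4 members were higher by at least 10 points, against 0.0234% of all positions and 30% of the scattered ones, and 0 were lower, against 0.00167% and 2.08%. Scattered positions were chosen by the same limits on reads and share, and 4 of 14 is near their percentage. All 14 had an adjusted p of 1. The 4 were chromosome 9 at 135895653, with a difference of 24.6 points, and 3 in the second chromosome 21 cluster, 46640856 with 21.3, 46640815 with 12.8 and 46640779 with 10.7. At the other end of the 14, the difference was -9.11 points at chromosome 6, position 42856029, and -7.63 points at chromosome 4, position 57326291.

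Pooling all listed positions into blocks, joined where at most 100 nt apart, gave few calls. The 17 clusters lay in 15 of the blocks tested, of which there were 43870 at a minimum of 200 reads per library. Of the 15, 0 had a higher rate in the ABA library at an adjusted p under 0.05 by Fisher's exact test, against 0.0137% of all blocks, and 0 a lower one (0%). Without a test, 9 of the 15 were higher in the ABA library and 6 were lower. Of all blocks 26.9% were higher, 12.9% lower and 60.2% equal, and of the 17463 blocks whose rates differed 67.6% were higher. Blocks with members hold G reads through the rule, so the last percentage is the nearer one. By an unadjusted exact p under 0.05, 2 of the 15 passed, both on chromosome 21. Positions at 35% or more were left out of the blocks, which takes away several members, such as 42856029 on chromosome 6. It also takes away 46640815 and 46640856, which carried most of the G reads of the second chromosome 21 cluster, so its block was tested without them. With such positions kept, 0 raised blocks held members as well. The block that holds both chromosome 5 clusters, from 79922127 to 79924984, had 0.295% (0.216 to 0.393) in the no-ABA library and 0.384% (0.294 to 0.493) in the ABA library over 849 positions. The one that holds both chromosome 6 clusters, from 42855308 to 42857569, had 0.339% (0.226 to 0.490) and 0.469% (0.343 to 0.625). Both blocks include members, which the rule chose for their G reads, so their level is a description.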

How the data were processed

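Per the file headers, the authors deposited for each of 2 libraries 1 file of A positions of the plus strand and 1 of T positions of the minus strand, with counts of reads showing each base, not normalised, with a single base read cutoff of 5 named. The submitters' processing notes name cutadapt, HISAT2 and hg19, without versions. Duplicate removal and the counting program are not given in the sources used here. Libraries were made with a KAPA mRNA HyperPrep kit, per the labels' protocols.

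Minus-strand counts were complemented. Shares have Clopper-Pearson intervals and ratios exact conditional binomial intervals at 95%, while a ratio of 2 ratios has a normal approximation. Reads span neighbouring positions and are not independent, which makes the intervals too narrow. The limit for a count of 0 is 3 reads. Positions at 35% or more in either library are called variant-like. Fisher's exact tests used Benjamini-Hochberg adjustment over all positions or blocks. The position test and the rule were run on simulated data, and the block test was not. The rises simulated for the position test were larger than any seen at a member, so smaller changes were not covered. The locus on chromosome 21 takes in the plus-strand blocks within 50000 nt of its 3 raised blocks. Alternatives changed the window, the neighbours, the limits on reads and share, the strand and the depth, and left out clusters. The members, sets and alternatives were chosen with earlier results of these data known. Clusters and members to be named were the 12 clusters with the most members, those with the largest changes at 100 reads in each library (only 2 had this depth), the 8 deepest members and the 6 largest rises and falls among members with 20 reads in both. Others were added after their values were seen. The sequence and gene annotation of hg19 were not used here, so clusters are given by hg19 coordinate and the cells' identity was not checked by marker genes. Computations ran in Python 3.11.15 with scipy 1.17.1, pandas 2.3.3 and numpy 2.4.6, and plots were drawn with matplotlib 3.10.9.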

Additional observations from a re-analysis of the deposited data

How the results depend on the processing

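The 52 members became 20 with a window of 50 nt, 153 with 1 neighbour and 3 with 4 neighbours. They became 28 with 3 pooled G reads, 23 from a pooled share of 10%, 27 with 10 and 9 with 20 reads in each library, and 28 without variant-like positions. There were 27 on the plus and 25 on the minus strand. The ratio over all clustered positions, 1.13, had a Fisher's exact p under 0.05 at 1.22 (window of 200 nt), 1.33 (1 neighbour), 1.75 (4 neighbours), 1.28 (3 pooled G reads), 1.27 (10 reads), 1.67 (20 reads), 1.29 (plus strand), 1.25 (depth thinned to the lower library) and 1.20 (without the chromosome 21 cluster at 46600250), although the intervals of the last 2, 0.998 to 1.57 and 0.982 to 1.46, include 1. It reversed to 0.780 on the minus strand, 0.915 without the chromosome 21 cluster at 46640767, the largest by G reads, and 0.940 without the locus. Outside the locus the ratio of 0.940 reversed to 1.19 (1 neighbour), 1.12 (3 pooled G reads), 6.42 (20 reads, which left 1 member there), 1.13 (variant-like positions left out before clustering) and 1.12 (plus strand). Of these, 1.19 (1.03 to 1.37) and 6.42 (0.824 to 289) had a Fisher's exact p under 0.05, although the second interval includes 1. The ratio outside the locus was from 0.780 to 0.990 under 22 other settings. Of these, 15 left out 1 cluster each, shared most of their members and are no separate alternatives to the rule. The rest were the windows of 50 and 200 nt, 4 neighbours, 10% share, 10 reads, minus strand and thinning. The ratio in the locus kept its direction and call in 12 settings, at 1.56 to 2.68, and that of scattered positions in 13, at 1.12 to 1.98. For the locus this is no check, as it was chosen for its higher rate in the ABA library. Several of its settings also left the same members and gave the same ratio of 1.60. The clustered ratio over the scattered one, 0.831 in all, no longer passed at 0.821 (50 nt), 0.894 (200 nt), 0.980 (1 neighbour), 0.867 (10 reads), 0.945 (plus strand) and 0.860 (thinned). It reversed to 1.30 (4 neighbours), 1.07 (3 pooled G reads), 1.12 (10% share) and 1.08 (20 reads). Outside the locus, at 0.695, it no longer passed at 0.720 (50 nt), 0.878 (1 neighbour), 0.643 (4 neighbours), 0.934 (3 pooled G reads), 0.893 (10% share), 0.832 (plus strand) and 0.759 (3 to 9 pooled G reads, chosen after seeing the data). It reversed to 4.24 with 20 reads and kept its call in 5 settings, from 0.573 to 0.727. The cause of these changes was not tested. The 4 members higher by size became 2 (50 nt), 14 (1 neighbour), 1 (4 neighbours, 10% share, no variant-like positions, largest cluster left out or locus left out) and 0 (minus strand), and thinning gave 1 lower by size. On the minus strand 1 block was raised, against 6 in all. The cluster and locus omissions were also chosen after seeing the data. No paired analysis was possible because each condition has 1 library. Depth limits what single members can show: outside the locus they had a median of 15 reads per library.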

Other observations

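The 3 clustered A-to-C positions formed a single cluster on chromosome 20, minus strand. Position 17639786 had 5 C and 14 A reads in the no-ABA library and 4 C and 17 A in the ABA library. Position 17639816 had 1 C and 13 A, then 3 C and 19 A, and 17639846 had 3 C and 18 A, then 3 C and 22 A. Their summed share was 16.7% (7.92 to 29.3) in the no-ABA and 14.7% (7.28 to 25.4) in the ABA library, a level like that of the A-to-G clusters outside chromosome 21.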
